A study of Homo sapiens with 6 samples.

Results

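The genes described here are the 39 coat and cargo receptor genes of transport between the endoplasmic reticulum and the Golgi. They were chosen by name: subunits and organisers of the COPII and COPI vesicle coats, the p24 family, the KDEL receptors and further cargo receptors. The choice was made with earlier results of these data known. All 39 were found by symbol among the 36884 genes of the deposited table, each on 1 row, and all 39 had enough counts to be tested. RNA was sequenced from RPE1, an immortalized and non-transformed human retinal pigment epithelial line, in which LATS1 and LATS2, the kinases of the Hippo pathway, had been inactivated by CRISPR-Cas9. Both groups carry this inactivation: siCon is 3 libraries of these cells given control siRNA, and siMK5 is 3 libraries given siRNA that targets the kinase MK5 (gene MAPKAPK5), all taken 48 h after transfection. Whether the LATS1/2-null cells are 1 clone, and how many siRNAs were used, is not given in the sources used here. No library restores MK5, so effects of lower MK5 and other effects of the siRNA cannot be told apart.

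COPII coats bud vesicles from the endoplasmic reticulum and carry new secretory and membrane proteins forward. The GTPase SAR1 recruits SEC23 and SEC24, of which SEC24 reads sorting signals on cargo, and SEC13 with SEC31 forms the outer cage. COPI coats, made of the coatomer complex, return escaped residents and receptors from the Golgi to the endoplasmic reticulum and also act within the Golgi. Cargo receptors such as LMAN1, SURF4, the p24 proteins and the KDEL receptors shuttle between the compartments and are packed into either coat. Cells are known to raise many of these genes when the load of secretory protein grows, in part through transcription factors of the unfolded protein response.

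The 6 libraries held between 27188074 and 28236773 counts. MAPKAPK5, the target of the siRNA, fell from 31.97 ± 3.302 to 15.9 ± 1.66 CPM (counts scaled to the same total in every library, mean ± SD, n = 3). Its libraries held 35.6, 29.05 and 31.3 CPM in siCon and 17.4, 14.1 and 16.2 CPM in siMK5, without overlap (log2 −1.01 ± 0.14 SE, edgeR adjusted p = 0.00169). Replicate 1 stood apart from replicates 2 and 3, most of all in siCon, which the second principal component of all genes (21.0% of the variance) set off from the other libraries. Values without it are given where leaving it out changed a call or a statement on a member. Of 9 retinal pigment epithelium markers, 5 were abundant enough to be tested. The summed level of all 9 was 85.1 to 97.2 CPM in siCon and 59.4 to 66.7 CPM in siMK5, TTR had no count and RPE65 and RLBP1 reached no more than 0.0737 and 0.0369 CPM in any library. Most of that sum was MITF and OTX2. MITF fell from 54.1 ± 4.08 to 25.3 ± 3.45 CPM (edgeR adjusted p = 0.00114). OTX2, at 32.4 ± 2.61 and 34.8 ± 0.919 CPM, did not pass (edgeR adjusted p = 0.460), nor did BEST1 and SERPINF1. PMEL fell at no more than 2.40 CPM in any library (edgeR adjusted p = 0.00189). Among 4 markers of simple epithelium, KRT8 and KRT18 were high, EPCAM had no count and CDH1 was near 0, with a summed 752 to 827 CPM in siCon and 387 to 573 CPM in siMK5. KRT8 fell from 642 ± 38.3 to 363 ± 93.0 CPM and KRT18 from 148 ± 5.82 to 88.7 ± 12.6 CPM (edgeR adjusted p = 0.0104 and 0.00363). EPCAM and CDH1 had too few counts to be tested. VIM and CDH2, both mesenchymal, summed to 3932 to 4743 CPM and 3579.6 to 4157 CPM. Leukocyte and endothelial markers (2 each) summed to at most 0.295 and 0.460 CPM in any library, and PECAM1 had no count. The part of these marker levels in the results below was not tested.

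Most of the coat and cargo receptor genes were higher after MK5 siRNA. Of the 39, 27 rose (69.2%), 3 fell (7.69%) and 9 did not pass (quasi-likelihood test of edgeR, with p-values adjusted over 13431 genes and a threshold of 0.05). Among all genes tested, 22.5% rose and 23.7% fell. The increases of 16 members were at least 2-fold, as were those of 10.8% of all genes. The median log2 fold change was 0.88 for the members and 0.00 for all genes tested. Because the members were chosen with earlier results of these data known, these contrasts describe the set and do not test it. All 3 siMK5 libraries lay above all 3 siCon libraries for 28 members, as for 30.6% of all genes, and below them for 4, as for 29.8%, so that the groups were apart in 32 members and in 60.4% of all genes. The members together took up 0.575% to 0.630% of the counts in the siCon libraries and 1.15% to 1.19% in the siMK5 libraries. In bulk RNA, more cells with a high level and more RNA per cell cannot be told apart. SEC24A, SEC13, LMAN1, KDELR3, COPZ2 and MIA3 rose by more than 3-fold, also without replicate 1 in both groups, whereas ARCN1, COPG2 and ERGIC1 fell. Without replicate 1 in both groups, 29 members rose and 6 fell, against 37.9% and 37.8% of all genes in the same comparison. Its p-values, here and below, rest on replicates 2 and 3 alone and measure only the spread between them. The submitters call the libraries biological replicates without saying how they were separated, so the p-values measure the spread between these libraries.

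**Figure D1:**
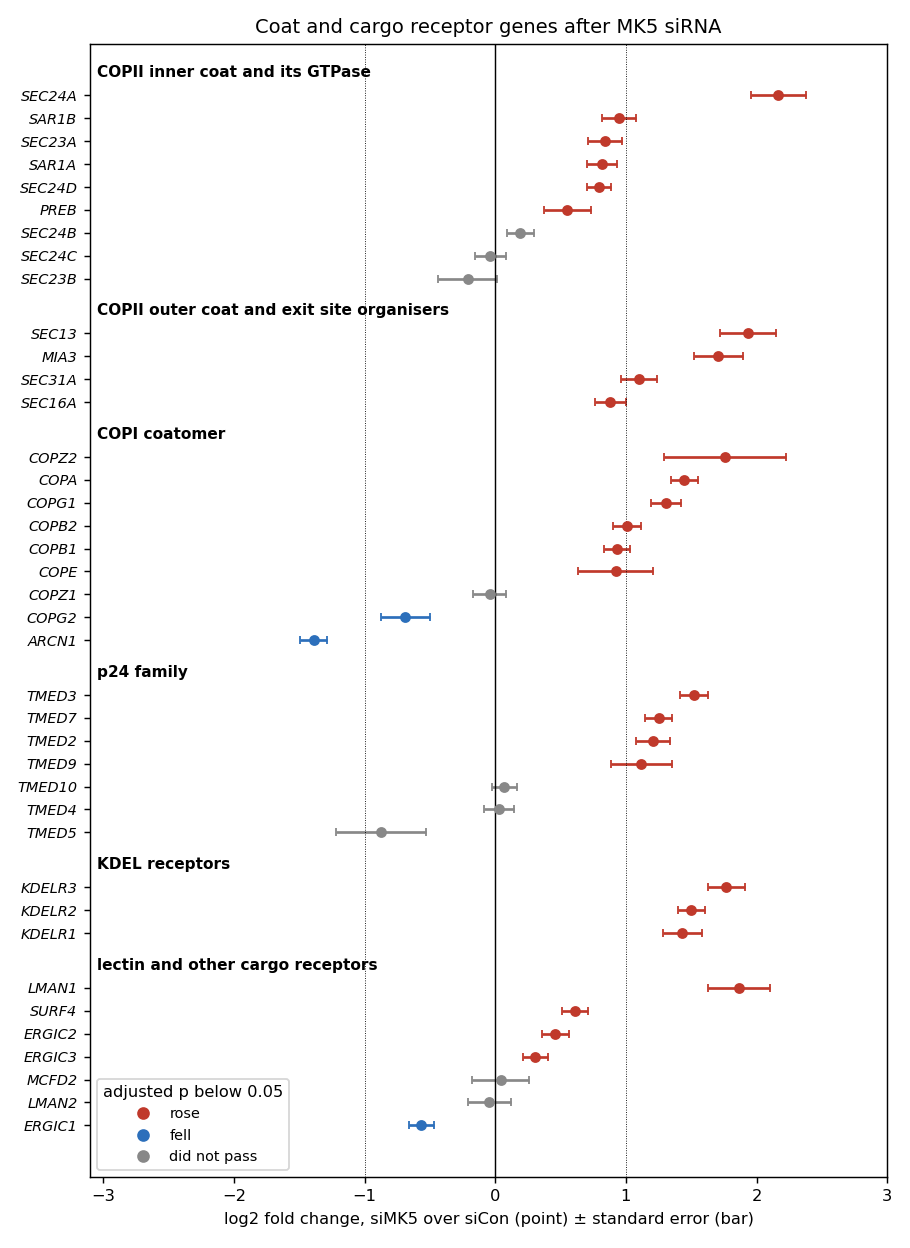
Log2 fold change of each of the 39 genes, siMK5 over siCon (x axis), grouped by role, with bars for the standard error of the edgeR fit (n = 3 per group). Colour marks the call at an adjusted p below 0.05, dotted lines mark 2-fold, and 27 genes lie to the right as risen while COPG2, ARCN1 and ERGIC1 lie to the left as fallen.

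The promoters of the members were searched for short sequences known from stress-induced secretory genes. RefSeq promoters (GRCh38.p14, 250 bases before to 50 bases after a start) were found for 34 members, some with more than 1 start. ERGIC1, KDELR2, SEC24D, TMED4 and TMED9 were not matched. The letters TGACGTGG, the core of the unfolded protein response element, occurred on either strand in 7 of the 34 members (20.6%), against 1.19% of 10256 tested genes and 0.927% of all 27305 symbols with a promoter. The genes of the other lists described further on, clathrin and its adaptors left out, held it in 7 of 91 (7.69%). All 7 were among the 24 members that rose (29.2%), and none of the 10 other members held it. Since 24 of these 34 members rose, most of any 7 picked from them would have risen too. A tie between match and rise within the members was not tested. All 7 are shown because they carry this match. They are shown 5′ to 3′ on the strand of the gene, 40 bases each, with the match in capitals (CCACGTCA is the same word on the other strand).
SEC23A: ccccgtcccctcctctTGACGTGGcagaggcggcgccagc
SEC24A: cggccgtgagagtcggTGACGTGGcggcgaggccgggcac
SEC16A: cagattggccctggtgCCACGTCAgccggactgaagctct
COPA: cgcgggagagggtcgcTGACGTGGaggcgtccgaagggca
COPB1: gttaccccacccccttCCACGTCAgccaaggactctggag
COPB2: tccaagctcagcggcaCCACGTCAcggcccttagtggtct
KDELR3: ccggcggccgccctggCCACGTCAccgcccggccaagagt
Their positions are chr14:39103216-39103255 (minus strand) for SEC23A, chr5:134648590-134648629 (plus strand) for SEC24A, chr9:136484702-136484741 (minus strand) for SEC16A, chr1:160343222-160343261 (minus strand) for COPA, chr11:14499836-14499875 (minus strand) for COPB1, chr3:139389820-139389859 (minus strand) for COPB2 and chr22:38468034-38468073 (plus strand) for KDELR3. In SEC23A the match begins 4 bases before the start, in KDELR3 46 and in COPB1 48 bases before it. It begins 163 bases before the start in COPB2, counted from the upstream of its 2 listed starts, and 179 in SEC24A, at base 6 of the transcript in COPA, and at base 16 in SEC16A, counted from the most upstream of its 3 listed starts, the only one whose window holds the word. COPB2 holds the word a second time.

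The shorter word ACGTG, which lies within TGACGTGG, was present in 25 of the 34 promoters (73.5%), against 32.3% of tested genes and 42.9% of those 91 genes. It occurred in 19 of the 24 members that rose and in 6 of the 10 others. ARCN1 and COPG1, which changed in opposite directions, both hold it close to the start, and MIA3, which rose 3.26-fold, holds it in another setting:
ARCN1: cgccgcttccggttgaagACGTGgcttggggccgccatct
COPG1: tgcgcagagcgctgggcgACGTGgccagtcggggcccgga
MIA3: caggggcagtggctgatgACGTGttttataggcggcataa
These stretches are chr11:118572373-118572412 (plus strand), chr3:129249580-129249619 (plus strand) and chr1:222644286-222644325 (plus strand). The promoters of LMAN1 and KDELR1 held no ACGTG in this window although both genes rose, as did SAR1B, PREB and ERGIC3. None of the 34 members with a promoter held the endoplasmic reticulum stress element in either of its forms (ERSE and ERSE-II). Nor did any of them hold the cyclic AMP element TGACGTCA or TGATGCAA, a form of the element bound by ATF4 with C/EBP proteins. The shares of these 4 elements among tested genes were 0.156%, 0.137%, 3.75% and 0.741%. At such shares, few or no matches would be expected in 34 promoters. Of the tested genes outside the members, 115 held TGACGTGG in a promoter: 55 of them rose (47.8%) and 18 fell (15.7%). Among those without it, 22.1% rose and 24.4% fell. Of such genes with ACGTG, 25.8% rose, against 20.8% of those without it. The share that rose was 24.4% of 385 with the cyclic AMP element, 31.6% of 76 with TGATGCAA, 28.6% of 14 with ERSE-II and 62.5% of 16 with ERSE. A match describes the letters and shows no binding.

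Of the 9 genes of the inner COPII coat and its GTPase, 6 rose and none fell, and the SEC24 adaptors had different calls. SEC24A (ENSG00000113615), a cargo-binding adaptor, stood at 61.3, 40.1 and 37.6 CPM in siCon replicates 1, 2 and 3 and 232, 194 and 199 CPM in siMK5 replicates 1, 2 and 3. Every siMK5 library exceeded every siCon library, and siCon replicate 1 was the highest control. The level rose 4.49-fold (log2 2.17 ± 0.21, edgeR adjusted p = 0.000501). By replicate number the differences were 1.91 (1), 2.26 (2) and 2.39 (3), taken from log2(CPM + 0.5). SEC24D (ENSG00000150961), another adaptor, was at 168, 162 and 158 CPM in siCon replicates 1, 2 and 3 and 289, 282 and 273 CPM in siMK5 replicates 1, 2 and 3, a tight rise of 0.79 ± 0.09 on the log2 scale (edgeR adjusted p = 0.000883). SEC24B (ENSG00000138802) was at 80.6, 81.4 and 71.4 CPM in siCon replicates 1, 2 and 3 and 93.01, 85.1 and 88.6 CPM in siMK5 replicates 1, 2 and 3. Its groups did not overlap, by a narrow margin, and the change of 0.19 ± 0.10 did not pass (edgeR adjusted p = 0.163). It passed without siCon replicate 1 (0.22, edgeR adjusted p = 0.0478) and without replicate 1 in both groups (0.19, edgeR adjusted p = 0.0199). SEC24C (ENSG00000176986), the remaining adaptor, was at 217, 253 and 256 CPM in siCon replicates 1, 2 and 3 and 212, 252 and 244 CPM in siMK5 replicates 1, 2 and 3. The groups overlap, and the change of −0.04 ± 0.12 did not pass (edgeR adjusted p = 0.811).

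Of the paired SEC23 genes, SEC23A rose and SEC23B did not pass. SEC23A (ENSG00000100934), the GTPase-activating subunit, was at 208, 184 and 167 CPM in siCon replicates 1, 2 and 3 and 376, 319 and 306 CPM in siMK5 replicates 1, 2 and 3, and the groups did not overlap (log2 0.84 ± 0.13, edgeR adjusted p = 0.00266). Its paralog SEC23B (ENSG00000101310) was at 142, 80.99 and 83.4 CPM in siCon replicates 1, 2 and 3 and 94.8, 82.6 and 87.1 CPM in siMK5 replicates 1, 2 and 3. Among its libraries siCon replicate 1 stood out as the highest, and the change of −0.21 ± 0.23 did not pass (edgeR adjusted p = 0.472). Both SAR1 GTPases rose. SAR1B (ENSG00000152700) was at 48.4, 38.2 and 37.7 CPM in siCon replicates 1, 2 and 3 and 84.7, 78.1 and 76.9 CPM in siMK5 replicates 1, 2 and 3 (log2 0.95 ± 0.13, edgeR adjusted p = 0.00172). SAR1A (ENSG00000079332) was at 156, 190.03 and 189 CPM in siCon replicates 1, 2 and 3 and 306, 310.1 and 326 CPM in siMK5 replicates 1, 2 and 3 (log2 0.82 ± 0.11, edgeR adjusted p = 0.00178). In both genes all siMK5 libraries were above all siCon libraries. PREB, the exchange factor that loads SAR1 with GTP, rose by 0.55 ± 0.18 (edgeR adjusted p = 0.0419), a call that rests on few libraries. It did not pass without siCon replicate 2 (0.41, edgeR adjusted p = 0.152) or 3 (0.44, edgeR adjusted p = 0.1497), nor without siMK5 replicate 1, 2 or 3 (edgeR adjusted p = 0.0943, 0.103 and 0.1198). PREB was at 78.0 CPM in siCon replicate 1 against 50.2 and 52.3 CPM in the other controls. It rose by 0.81 without replicate 1 in both groups (edgeR adjusted p = 1.33e-09, from replicates 2 and 3 alone).

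**Figure D2:**
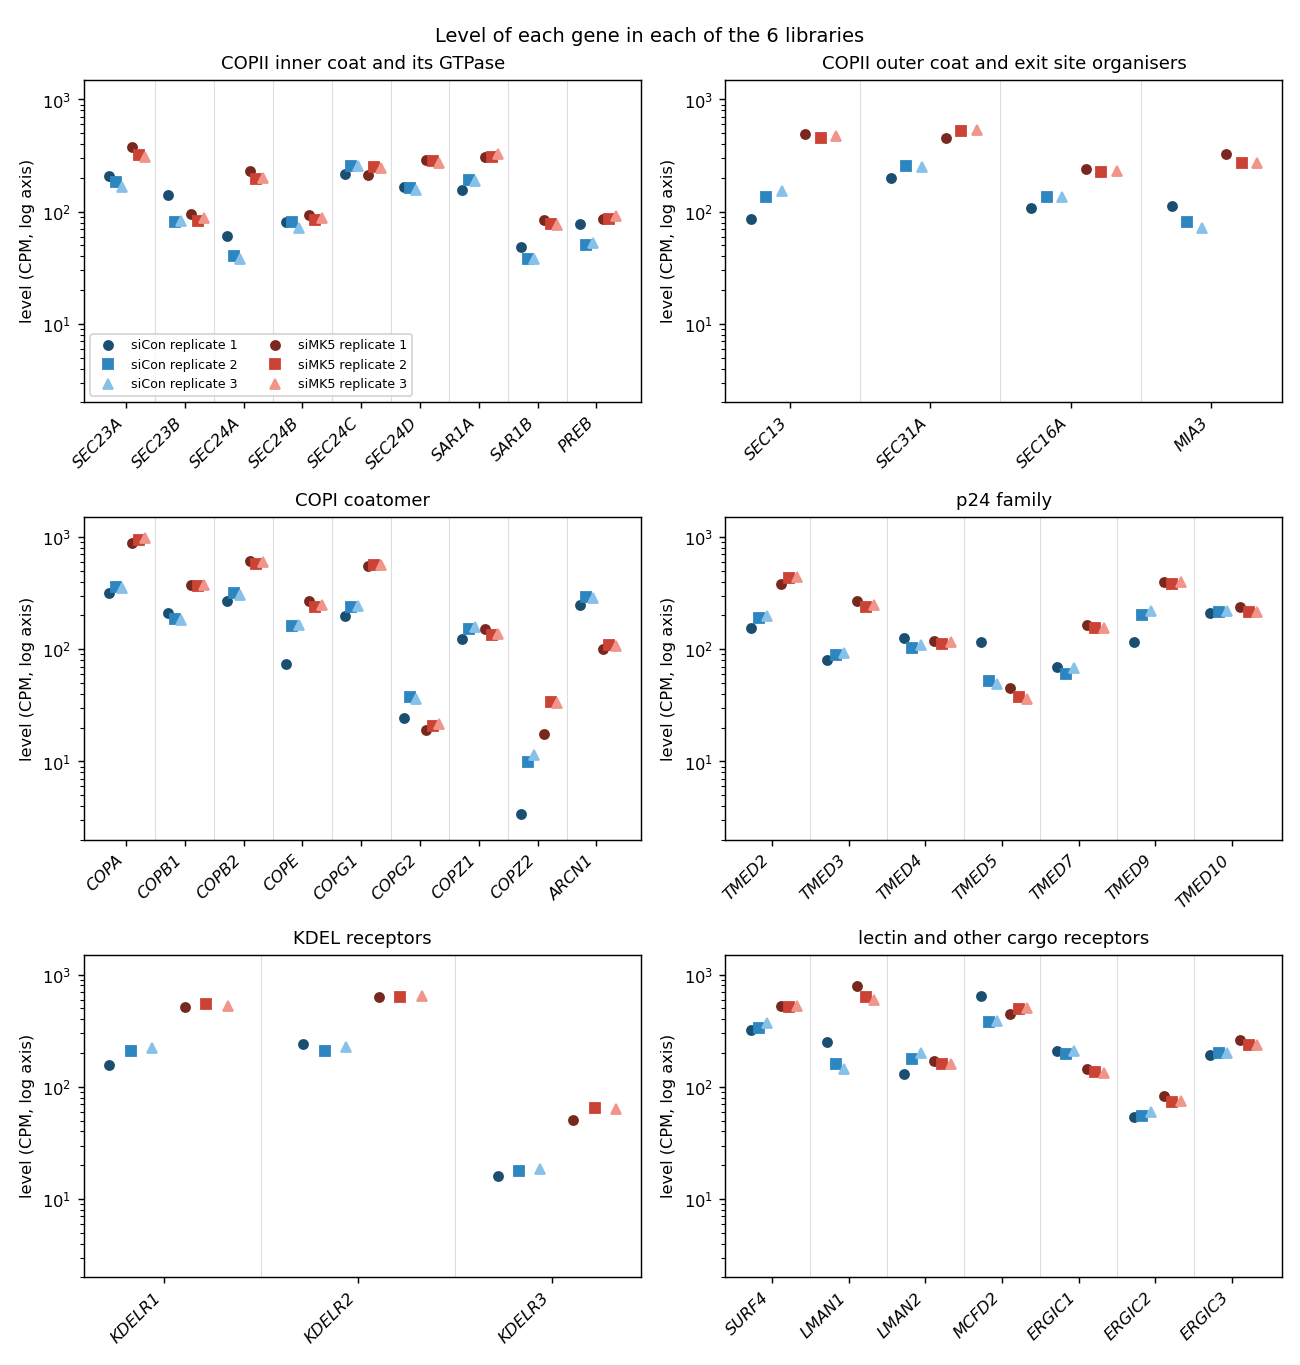
Level of each gene in CPM (y axis, log scale) in each of the 6 libraries, 1 panel per role, with blue marks for siCon and red for siMK5 and a shape for each replicate. The red marks lie above the blue ones for 28 genes, and siCon replicate 1 (dark blue circle) departs from the other controls in genes such as SEC23B, COPE, TMED5, TMED9 and MCFD2.

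All 4 genes of the outer coat and of exit site organisation rose. SEC13 (ENSG00000157020), a cage subunit shared with the nuclear pore, was at 85.9, 135 and 151 CPM in siCon replicates 1, 2 and 3 and 495, 451 and 477 CPM in siMK5 replicates 1, 2 and 3. The siMK5 libraries lay close together, far above controls of which replicate 1 was the lowest. SEC13 rose 3.82-fold (log2 1.94 ± 0.21, edgeR adjusted p = 0.000769), and by 1.70 without replicate 1 in both groups. MIA3 (ENSG00000154305), also called TANGO1, which helps load bulky cargo such as collagen at exit sites, was at 112, 81.2 and 71.9 CPM in siCon replicates 1, 2 and 3 and 325, 271 and 271 CPM in siMK5 replicates 1, 2 and 3. No library overlapped between groups (log2 1.71 ± 0.19, edgeR adjusted p = 0.000783). SEC31A (ENSG00000138674), the main cage subunit, was at 199, 254 and 249.6 CPM in siCon replicates 1, 2 and 3 and 452, 522 and 532 CPM in siMK5 replicates 1, 2 and 3 (log2 1.10 ± 0.14, edgeR adjusted p = 0.00111). SEC16A, the scaffold that marks exit sites, rose by 0.88 ± 0.12 (edgeR adjusted p = 0.00163), and its groups were also apart.

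Of the 9 COPI coatomer genes, 6 rose and 2 fell. COPA (ENSG00000122218), the alpha subunit, was at 320.2, 357 and 351 CPM in siCon replicates 1, 2 and 3 and 878, 949.8 and 972 CPM in siMK5 replicates 1, 2 and 3, with the groups far apart (log2 1.45 ± 0.10, edgeR adjusted p = 0.000231). The gamma subunit gene COPG1 rose by 1.31 ± 0.12, the beta prime subunit gene COPB2 by 1.01 ± 0.11 and the beta subunit gene COPB1 by 0.93 ± 0.10 (edgeR adjusted p = 0.000409, 0.000667 and 0.000687). ARCN1 (ENSG00000095139), which encodes the delta subunit of the same complex, went the other way. It was at 250.2, 290.3 and 284 CPM in siCon replicates 1, 2 and 3 and 100.3, 108 and 106 CPM in siMK5 replicates 1, 2 and 3. All 3 siMK5 libraries agreed closely and were below every control: ARCN1 fell 2.62-fold (log2 −1.39 ± 0.11, edgeR adjusted p = 0.000260). By replicate number ARCN1 differed by −1.31 (1), −1.42 (2) and −1.41 (3) in log2(CPM + 0.5), and its fall passed in each of the 13 alternative analyses.

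Levels per kilobase of exon, which allow genes to be set beside each other, placed ARCN1 at the top of the coatomer genes in controls and low among them after MK5 siRNA. Its level went from 65.8 ± 5.19 to 25.1 ± 0.998 CPM per kilobase (mean ± SD, n = 3). COPA went from 44.3 ± 2.53 to 121 ± 6.34, COPG1 from 51.1 ± 5.87 to 127 ± 1.696, COPB1 from 37.6 ± 2.71 to 71.9 ± 1.06 and COPB2 from 36.3 ± 3.11 to 72.9 ± 2.05 on the same scale. In controls the lowest library of ARCN1 (59.9) was above the highest of any other coatomer gene (56.8, COPE). In siMK5 its highest library (25.9) was below the lowest of COPZ1 (34.3). Only the minor paralogs COPG2 and COPZ2 had lower means in that group. Exon lengths are from GENCODE 29 on GRCh38, not from the build used for counting, and transcripts of different length within a gene are not separated.

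**Figure D3:**
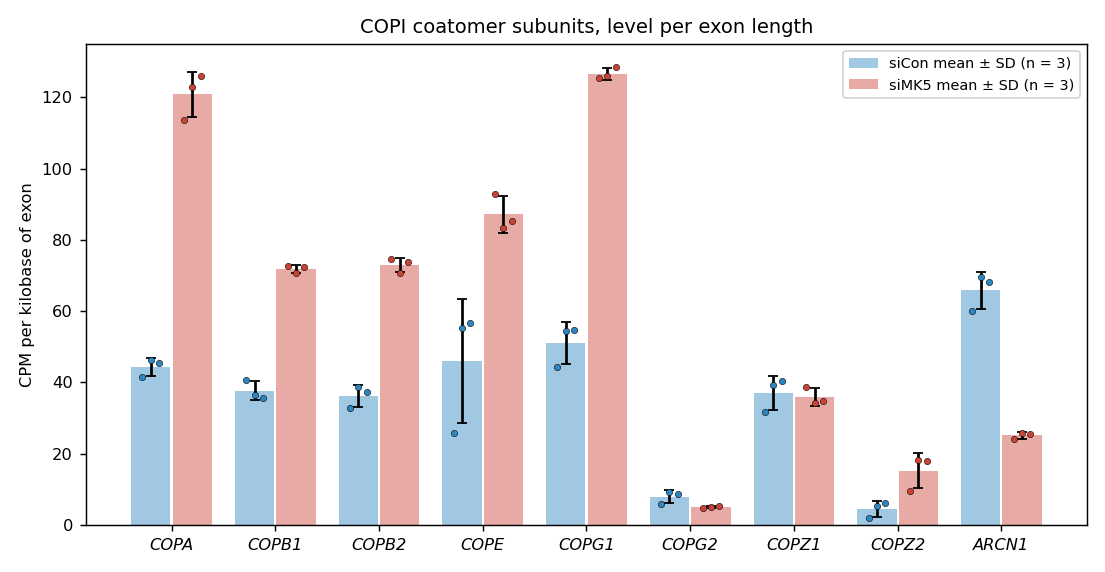
Level of the 9 coatomer genes in CPM per kilobase of exon (y axis): bars give the mean, error bars the SD over 3 libraries, and points the single libraries, blue for siCon and red for siMK5. ARCN1 falls from 65.8 to 25.1 while COPA and COPG1 rise to 120.9 and 126.6.

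The gamma and zeta subunits each have 2 genes, and in neither pair did both genes rise. COPG2 (ENSG00000158623) was at 24.4, 37.7 and 36.3 CPM in siCon replicates 1, 2 and 3 and 19.1, 20.6 and 21.5 CPM in siMK5 replicates 1, 2 and 3. Its groups were apart, with siCon replicate 1 the lowest control (log2 −0.69 ± 0.18, edgeR adjusted p = 0.0205). The call was lost when any of siCon replicates 2 and 3 and siMK5 replicates 1, 2 and 3 was left out (−0.59, −0.63, −0.64, −0.68 and −0.72, edgeR adjusted p between 0.05605 and 0.0712). COPG2 shares 228 exon bases with MEST on the opposite strand in GENCODE 29. MEST itself stood at 907 CPM in siCon and 394 CPM in siMK5, and the part of its reads in the COPG2 count was not tested. COPZ2 (ENSG00000005243) was at 3.37, 9.99 and 11.5 CPM in siCon replicates 1, 2 and 3 and 17.6, 33.8 and 32.96 CPM in siMK5 replicates 1, 2 and 3. Replicate 1 was the lowest library in each group, yet the groups did not overlap (log2 1.76 ± 0.47, edgeR adjusted p = 0.01998). Its rise was 1.39 without siCon replicate 1 (edgeR adjusted p = 0.00327) and 1.64 without replicate 1 in both groups. It did not pass without siMK5 replicate 2 (1.61, edgeR adjusted p = 0.0658) or 3 (1.64, edgeR adjusted p = 0.0642). COPZ1 (ENSG00000111481), the major zeta gene, was at 123, 153 and 158 CPM in siCon replicates 1, 2 and 3 and 151, 134 and 136 CPM in siMK5 replicates 1, 2 and 3. These overlap, and the change of −0.04 ± 0.13 did not pass (edgeR adjusted p = 0.804); without replicate 1 in both groups it fell by 0.20 (edgeR adjusted p = 0.00479).

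COPE, the epsilon subunit gene, rose by 0.92 ± 0.29 (edgeR adjusted p = 0.03498), but its size depended on siCon replicate 1, at 74.4 CPM against 159.6 and 164 CPM in replicates 2 and 3. Without that library it rose by 0.64 (edgeR adjusted p = 0.000217) and without replicate 1 in both groups by 0.59 (edgeR adjusted p = 1.43e-08). Its call was lost without siMK5 replicate 1, 2 or 3 (edgeR adjusted p = 0.101, 0.0777 and 0.0822) and with the replicate number as a block (1.00, edgeR adjusted p = 0.0501).

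In the p24 family, small transmembrane proteins that form hetero-oligomers and carry GPI-anchored and other cargo, 4 of 7 genes rose by at least 2-fold and none fell. TMED3 (ENSG00000166557) was at 81.03, 88.7 and 92.7 CPM in siCon replicates 1, 2 and 3 and 269, 239 and 246 CPM in siMK5 replicates 1, 2 and 3 (log2 1.52 ± 0.11, edgeR adjusted p = 0.000221). TMED7 (ENSG00000134970) was at 68.8, 60.5 and 68.2 CPM in siCon replicates 1, 2 and 3 and 163, 153 and 153 CPM in siMK5 replicates 1, 2 and 3 (log2 1.25 ± 0.10, edgeR adjusted p = 0.000316). Both sets of siMK5 libraries were narrow and clear of the controls. TMED2 (ENSG00000086598) was at 154, 189.9 and 199 CPM in siCon replicates 1, 2 and 3 and 382, 433 and 439 CPM in siMK5 replicates 1, 2 and 3 (log2 1.21 ± 0.13, edgeR adjusted p = 0.000769). TMED9 rose by 1.12 ± 0.23 (edgeR adjusted p = 0.00765), and by 0.88 without replicate 1 in both groups. TMED10, the usual partner of TMED2, gave 0.07 ± 0.10 and TMED4 gave 0.03 ± 0.11, neither of which passed (edgeR adjusted p = 0.579 and 0.854). Whether TMED2 and TMED10 differ in their change was not tested. TMED5 ran lower. It was at 117, 51.8 and 49.3 CPM in siCon replicates 1, 2 and 3 and 45.6, 37.8 and 35.7 CPM in siMK5 replicates 1, 2 and 3, so that the groups did not overlap and siCon replicate 1 was far above the other controls. Its change of −0.87 ± 0.34 did not pass (edgeR adjusted p = 0.0745). It passed with the replicate number as a block (−0.76, edgeR adjusted p = 0.0476), without siCon replicate 1 (−0.34, edgeR adjusted p = 0.0276), without siCon replicate 3 (−1.12, edgeR adjusted p = 0.0439) and without replicate 1 in both groups (−0.46, edgeR adjusted p = 1.11e-05).

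The 3 KDEL receptors, which bind escaped chaperones in the Golgi and return them in COPI vesicles, all rose. KDELR2 (ENSG00000136240) was at 243, 207 and 225 CPM in siCon replicates 1, 2 and 3 and 635, 630.1 and 645 CPM in siMK5 replicates 1, 2 and 3. Its siMK5 libraries lay close together, and the groups were far apart (2.83-fold higher, edgeR adjusted p = 0.000212). KDELR1 (ENSG00000105438) was at 156, 209 and 221 CPM in siCon replicates 1, 2 and 3 and 511, 544 and 525 CPM in siMK5 replicates 1, 2 and 3 (log2 1.43 ± 0.15, edgeR adjusted p = 0.000649). KDELR3 (ENSG00000100196) was at 16.2, 17.7 and 18.5 CPM in siCon replicates 1, 2 and 3 and 50.2, 64.5 and 64.03 CPM in siMK5 replicates 1, 2 and 3 (log2 1.77 ± 0.14, edgeR adjusted p = 0.000282). Per kilobase of exon, KDELR1 went from 86.8 ± 15.4 to 234 ± 7.15, KDELR2 from 56.4 ± 4.48 to 159.6 ± 1.84 and KDELR3 from 9.06 ± 0.605 to 30.9 ± 4.22 CPM. KDELR1 was the highest of the 3 in every library on that scale, and KDELR3 the lowest. Many of the proteins these receptors retrieve are the chaperones listed further on.

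The remaining cargo receptors were mixed: 4 of 7 rose and 1 fell. LMAN1 (ENSG00000074695), also called ERGIC-53, a mannose-binding lectin that carries glycoproteins out of the endoplasmic reticulum, was at 252, 159 and 146 CPM in siCon replicates 1, 2 and 3 and 797, 633 and 599 CPM in siMK5 replicates 1, 2 and 3. Replicate 1 was the highest library of each group and the groups were apart; LMAN1 rose 3.65-fold (log2 1.87 ± 0.24, edgeR adjusted p = 0.00127). MCFD2 (ENSG00000180398), its soluble partner in the export of clotting factors, was at 641, 376 and 384 CPM in siCon replicates 1, 2 and 3 and 442, 492 and 509 CPM in siMK5 replicates 1, 2 and 3. The groups overlap, with siCon replicate 1 the highest of all, and the change of 0.04 ± 0.22 did not pass (edgeR adjusted p = 0.888). MCFD2 rose by 0.34 without that library (edgeR adjusted p = 0.00785) and by 0.40 without replicate 1 in both groups (edgeR adjusted p = 1.69e-06). SURF4 (ENSG00000148248), a receptor for many soluble secreted proteins, was at 319.7, 336 and 371 CPM in siCon replicates 1, 2 and 3 and 521, 519.5 and 523 CPM in siMK5 replicates 1, 2 and 3 (log2 0.61 ± 0.10, edgeR adjusted p = 0.00326). Its siMK5 libraries were nearly equal, all above the controls.

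ERGIC1 (ENSG00000113719), a membrane protein that cycles between the compartments, fell. It was at 211, 195 and 207 CPM in siCon replicates 1, 2 and 3 and 143, 137 and 134 CPM in siMK5 replicates 1, 2 and 3, with no overlap (log2 −0.56 ± 0.09, edgeR adjusted p = 0.00321). Its partners ERGIC2 and ERGIC3 rose by 0.46 ± 0.10 and 0.31 ± 0.10 (edgeR adjusted p = 0.0111 and 0.0353). ERGIC3 did not pass without siCon replicate 2 or 3 (edgeR adjusted p = 0.109 and 0.106), without siMK5 replicate 1, 2 or 3 (edgeR adjusted p = 0.0824, 0.0968 and 0.0882) or with the replicate number as a block (0.30, edgeR adjusted p = 0.0558). LMAN2, another lectin, gave −0.05 ± 0.17 (edgeR adjusted p = 0.835) and did not pass; without replicate 1 in both groups it fell by 0.24 (edgeR adjusted p = 0.00224).

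The balance between paralogs was compared in 10 pairs as the log2 ratio of their levels (CPM with 0.5 added) in each library, which is not corrected for gene length. An exact permutation test over 3 against 3 libraries cannot go below a 2-sided p of 0.1, so no pair could pass, and adjusted over the 10 pairs the smallest value was 0.167. In 6 pairs the 2 groups of libraries did not overlap (exact permutation p = 0.1 each), a share near the 60.4% of single genes whose groups were apart. The ratio of SEC24A to SEC24B went from −0.77 ± 0.33 to 1.22 ± 0.08, which turned its sign in all libraries. Per kilobase of exon the order of their means turned too: SEC24A went from 6.44 ± 1.81 to 28.9 ± 2.83 and SEC24B from 14.9 ± 1.06 to 17.03 ± 0.7597 CPM. SEC24C to SEC24D went from 0.57 ± 0.17 to −0.26 ± 0.16, but per kilobase SEC24C kept the higher mean, from 45.3 ± 4.01 to 44.1 ± 3.896 against from 16.4 ± 0.508 to 28.3 ± 0.815 CPM for SEC24D. SEC23A to SEC23B went from 0.91 ± 0.32 to 1.91 ± 0.09 and COPG1 to COPG2 from 2.79 ± 0.17 to 4.75 ± 0.07. COPZ1 to COPZ2 went from 4.19 ± 0.70 to 2.36 ± 0.62 and SEC24D to SEC24A from 1.83 ± 0.34 to 0.44 ± 0.11. The libraries overlapped for SAR1A to SAR1B, with a shift of −0.13 (exact permutation p = 0.6), and for the 3 KDEL receptor pairs, whose shifts were −0.06, −0.23 and −0.29 (exact permutation p = 1, 0.3 and 0.2). The overlap of these 4 pairs came with replicate 1. Without it in both groups the shift was −0.27 for SAR1A to SAR1B, −0.25 for KDELR1 to KDELR2, −0.24 for KDELR2 to KDELR3 and −0.49 for KDELR1 to KDELR3. All 10 pairs were then apart, as were 87.3% of single genes, and 2 libraries against 2 cannot give an exact permutation p below 0.333. These values do not show that the 4 pairs kept their balance.

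**Figure D4:**
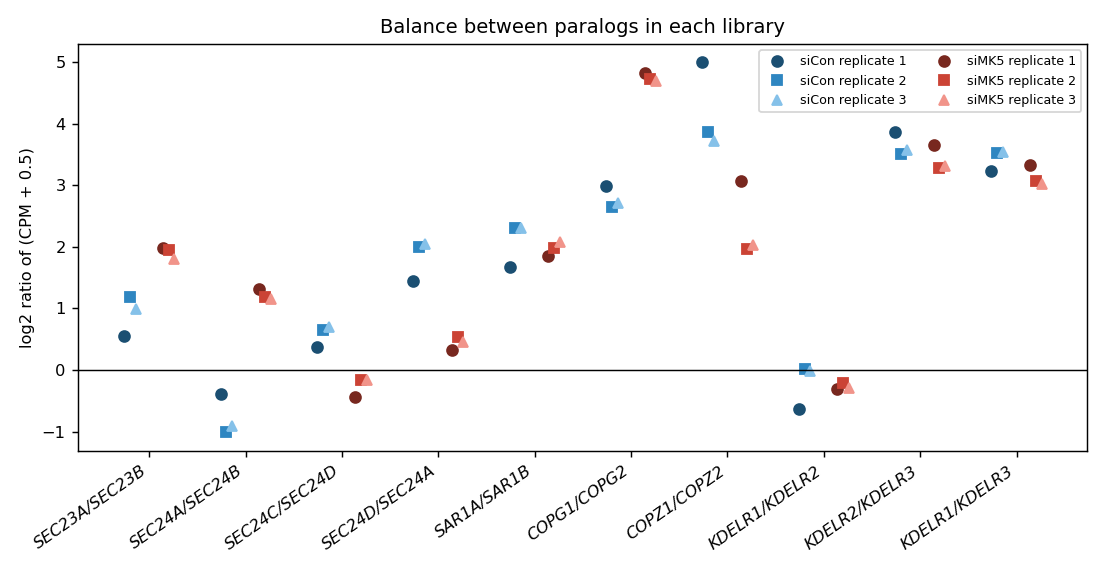
Log2 ratio of the levels of 2 paralogs (y axis, CPM with 0.5 added) in each library for 10 pairs, not corrected for length, blue marks for siCon and red for siMK5, a shape for each replicate. SEC24A/SEC24B and SEC24C/SEC24D lie on opposite sides of 0 in the 2 groups, whereas the blue and red marks overlap for SAR1A/SAR1B and the KDEL receptor pairs, in each case through replicate 1: the marks of replicates 2 and 3 alone are apart in all 10 pairs.

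Other genes of the same route were counted in lists drawn up by function, beside the 22.5% of all genes that rose and the 23.7% that fell. These lists, too, were chosen with earlier results of these data known. The ARF GTPases, which recruit coatomer, with their exchange factors and GTPase-activating proteins counted as follows: 8 of 11 tested rose and 1 fell, with a median log2 fold change of 0.83. ARF4 rose from 366 ± 47.3 to 935 ± 115 CPM (1.35 ± 0.15), and ARFGAP1 (1.28 ± 0.13) and ARFGAP3 (1.26 ± 0.09), which stimulate GTP hydrolysis by ARF on COPI vesicles, followed (edgeR adjusted p = 0.000722, 0.000532 and 0.000231). ARF3, of the same family, fell by 1.04 ± 0.09 (edgeR adjusted p = 0.000365), the only gene of that list to fall. Of the tethers and golgins that catch incoming vesicles, 14 of 18 tested rose and none fell (median 0.97). COG6 rose from 31.04 ± 2.73 to 179 ± 6.33 CPM (2.53 ± 0.11), GOLGA2, or GM130, from 64.8 ± 33.5 to 373 ± 10.8 CPM (2.53 ± 0.42), and GOLGB1, or giantin, by 1.61 ± 0.12 (edgeR adjusted p = 0.000148, 0.00336 and 0.000260). GOLGA2 was at 26.2 CPM in siCon replicate 1 against 86.4 and 81.7 CPM in the other controls, and rose by 2.14 without replicate 1 in both groups.

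Among the SNAREs and fusion factors of these membranes, 10 of 17 tested rose and 1 fell (median 0.58), led by BET1L (1.73 ± 0.17), STX5 (1.48 ± 0.16) and NAPA (1.34 ± 0.11), the last of which encodes alpha-SNAP (edgeR adjusted p = 0.000565, 0.000664 and 0.000337). SEC22B has no count in any library and was not tested, which does not show that its RNA was absent from the cells. Of other COPII partners and cargo adaptors, 9 of 20 tested rose and 3 fell (median 0.27). YIF1A and YIPF5, Golgi membrane proteins of the YIP family, rose from 45.7 ± 3.91 to 219 ± 5.17 CPM (2.27 ± 0.11) and by 1.67 ± 0.10. CTAGE5, a partner of MIA3 at exit sites, rose by 1.66 ± 0.31 at no more than 3.198 CPM in any library (edgeR adjusted p = 0.000148, 0.000201 and 0.00555). Among subunits of the TRAPP tethering complex, 3 of 14 tested rose and 2 fell (median 0.21). The largest changes were those of TRAPPC13 (−1.13 ± 0.14), TRAPPC6B (1.04 ± 0.12) and TRAPPC12 (0.91 ± 0.14, edgeR adjusted p = 0.00103, 0.000838 and 0.00267). Without replicate 1 in both groups TRAPPC2 (0.26), TRAPPC3 (0.16) and TRAPPC9 (0.20) also rose. TRAPPC2L (−0.40), TRAPPC4 (−0.23) and TRAPPC10 (−0.25) then also fell (each at an edgeR adjusted p below 0.05). The other lists gained calls there too. For clathrin and its adaptors, the coat of later transport steps, 6 of 25 tested rose and 7 fell (median 0.00). There AP3M1 (−2.11 ± 0.19) and AP1M2 (−1.85 ± 0.21) fell and AP3D1 (1.69 ± 0.10) rose (edgeR adjusted p = 0.000424, 0.000838 and 0.000201). The lists were not tested against each other.

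Of a list of chaperones and folding enzymes of the endoplasmic reticulum, 9 of 12 tested rose and 1 fell (median 0.84). Apart from DNAJB11, which lacks such a signal, its members carry a retrieval signal of the KDEL type, and 8 of these 11 rose. HYOU1 and P4HB, a protein disulfide isomerase, rose by 1.54 ± 0.12 and 1.34 ± 0.21, and HSPA5, or BiP, from 874 ± 42.1 to 2213 ± 187 CPM (1.34 ± 0.11, edgeR adjusted p = 0.000247, 0.00278 and 0.000331). PDIA4, of the disulfide isomerase family, fell by 0.61 ± 0.14 (edgeR adjusted p = 0.0125). Of the transcription factors tied to secretory genes, 5 of 10 tested rose and 1 fell: DDIT3 (2.98 ± 0.25), XBP1 (2.09 ± 0.24) and ATF4 (1.82 ± 0.23) rose most (edgeR adjusted p = 0.000343, 0.000883 and 0.00125). CREB3 and CREB3L2, relatives of ATF6 that are cleaved in the Golgi, rose by 1.39 ± 0.28 and 1.18 ± 0.14 (edgeR adjusted p = 0.00709 and 0.00102). ATF6 gave 0.34 ± 0.17 without passing, and ATF6B fell by 0.68 ± 0.20 (edgeR adjusted p = 0.137 and 0.0293). Without replicate 1 in both groups ATF6 rose (0.20), whereas CREB3L1 (−0.69), CREB3L4 (−0.37) and TFE3 (−0.31) fell (edgeR adjusted p = 0.00645, 2.56e-09, 0.0184 and 0.000123). Of the chaperones and folding enzymes, PDIA3 (−0.35) then fell and PDIA6 (0.15) rose (edgeR adjusted p = 1.13e-05 and 0.0234). These values are of transcript levels and say nothing on splicing or cleavage of the factors.

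**Figure D5:**
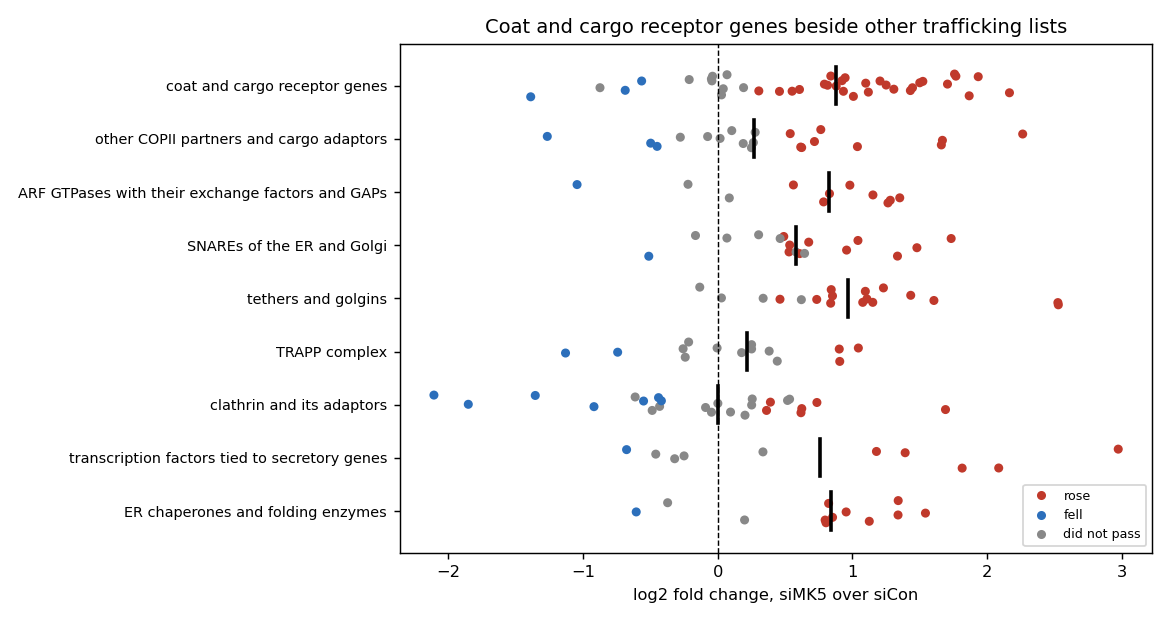
Log2 fold change of each tested gene, siMK5 over siCon (x axis), for the 39 coat and cargo receptor genes and 8 other lists, with points coloured by call, a black bar for the median of each list and a dashed line for that of all genes tested. The medians run from 0.00 for clathrin and its adaptors to 0.97 for tethers and golgins, with 0.88 for the coat and cargo receptor genes.

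Some members share exon bases with a neighbour, and whether counting used strand is not given in the sources used here. In GENCODE 29, SEC24A and SAR1B lie on opposite strands and share 385 exon bases (5.35% and 3.51% of their exon length), and both rose. SEC24C shares 42.9% of its exon length with a gene model marked as awaiting experimental checks on the opposite strand, and TMED7 shares 935 exon bases with a readthrough gene on its own strand. For KDELR2 the share with DAGLB on the same strand was 9.42%, and DAGLB stood at 54.7 CPM in siCon and 41.7 CPM in siMK5. ERGIC2 shares 2.97% with FAR2, which stood at 26.9 and 8.61 CPM. ARCN1 and LMAN1 shared no exon base with another gene of that annotation. The effect of these overlaps on the counts was not tested.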

How the data were processed

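RNA-seq libraries of 6 samples were used, 3 per group, grouped by their titles. The deposited values are whole-number counts per gene; they carry CPM in the name but sum to a different total in each library. Per the submitters' processing notes, the authors used FastQC, Trimmomatic 0.36, TopHat2 2.1.1 and HTSeq 0.9.1 with GRCh37; their order and settings, strand and annotation release were not found in the sources used.

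Low genes were removed by filterByExpr (at least 10 counts and 15 in total), which left 13431. edgeR 4.0.16 in R 4.3.3 scaled libraries by TMM and fitted the quasi-likelihood test without a block. The p-values are two-sided and adjusted by Benjamini-Hochberg over these genes. CPM uses the TMM-scaled totals. A standard error is the size of the log2 fold change over the square root of F. The test was checked on simulated counts with a smaller spread between libraries than the 21.2% that edgeR estimated here. That check cannot show how often the test errs on these data.

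The members and lists were chosen with earlier results of these data known. All members are named; values of every library are given for the 3 largest changes past the threshold in each role, their partners in the 10 paralog pairs, and members singled out after their values were seen (SEC24C, COPG2, TMED5, MCFD2). Up to 3 genes past the threshold are named per list. Further ones (CREB3, CREB3L1, CREB3L2, CREB3L4, ATF6, ATF6B, TFE3, ARF3, PDIA3, PDIA4, PDIA6, TRAPPC2, TRAPPC2L, TRAPPC3, TRAPPC4, TRAPPC9, TRAPPC10) were chosen after their values were seen. The symbol MIA2 of the lists was not found among the gene symbols of the deposited values. SEC22B, SEC16B and CREB3L3 had too few counts to be tested.

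Same-numbered libraries of the 2 groups deviated together (r = 0.258, 0.206 and 0.248 across genes), which by the rule used (each above 0.1) counts as pairing. It is read from the data, since no label gives a common day or batch, and mainly sets replicate 1 apart: crossing replicates 2 and 3 gave 0.182 and 0.151. The number entered as a block in an alternative only; the main fit and the permutation tests are unpaired. Alternatives were RLE size factors, DESeq2 1.42.0, limma-voom (limma 3.58.1), no filter, a replicate block, each library left out, replicate 1 left out in both groups, and summed rows of a repeated symbol. Promoters are from RefSeq (GRCh38.p14) and exon lengths from GENCODE 29, matched by symbol and gene identifier; neither is the build used for counting.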

Additional observations from a re-analysis of the deposited data

How the results depend on the processing

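The number of risen members was 27 and ranged from 23 to 29 over the 6 analyses that each left out a library, and from 25 to 29 over the other alternatives. The number of fallen members was 3, with 2 to 4 when a library was left out, and 6 without replicate 1 in both groups, where COPZ1, TMED5 and LMAN2 were added. Over all genes that comparison called 5195 risen and 5177 fallen, against 3020 and 3186 with all libraries, and 2103 fell without siMK5 replicate 2. The members' median log2 fold change of 0.88 lay between 0.82 (without siCon replicate 1) and 0.91 when single libraries were left out, and was 0.81 without replicate 1 in both groups. The replicate block gave 25 risen and 4 fallen members; beyond COPE, ERGIC3 and TMED5 it changed no call of a member. Calls and directions held in all 13 alternatives for 26 of the 39 members. PREB also failed to pass with RLE size factors (0.54, edgeR adjusted p = 0.0507), PREB and ERGIC3 without the filter (0.54 and 0.30, edgeR adjusted p = 0.05801 and 0.0991), and TMED5 passed in DESeq2 (−0.89, DESeq2 adjusted p = 0.0318). Directions turned in 6 members, none of which had passed: SEC23B gave 0.11 without siCon replicate 1 and 0.050 without replicate 1 in both groups, MCFD2 −0.12 and TMED4 −0.060 without siCon replicate 2, MCFD2 −0.11, TMED4 −0.019, COPZ1 0.0037 and LMAN2 0.071 without siCon replicate 3, and SEC24C 0.035 without siMK5 replicate 1. Over the single libraries left out, these log2 fold changes ran from −0.38 to 0.11 for SEC23B, −0.10 to 0.035 for SEC24C, −0.14 to 0.0037 for COPZ1, −0.060 to 0.13 for TMED4, −0.20 to 0.071 for LMAN2 and −0.12 to 0.34 for MCFD2. The shift in the log2 ratio of KDELR1 to KDELR3 went from −0.29 to −0.49 without replicate 1 in both groups. The cause of these changes was not tested. Summing the rows of a repeated symbol changed no count of calls; no member has a repeated symbol. With 3 libraries a group, small changes such as those of TMED10 and TMED4 are not told from 0.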
